A study of Callithrix jacchus with 6 samples.

Results

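Dentate granule-like neurons were followed in single-cell libraries of hippocampus from aged common marmosets (Callithrix jacchus). A cell barcode was counted as such a neuron when it carried at least 2000 unique molecular identifiers (UMIs, one per captured RNA molecule) and at least 1 UMI of LAMA3 or TRHR, the entry genes. At least 4 of the 8 genes LAMA3, TRHR, CCDC85A, GSG1L, COL25A1, SIDT1, OLFM3 and SYNPR had to be detected, with at least 15 summed UMIs per 10000. GAD1 and GAD2, the enzymes of GABA synthesis, could together give at most 1 UMI. Of 46582 barcodes in 6 libraries, 36360 held at least 2000 UMIs and 7455 met the rule. The control libraries, replicates 1 to 3, came from hippocampi of the control treatment, which the labels also call oxygen, at 6 h. The sevoflurane libraries, also replicates 1 to 3, came from hippocampi given the inhaled anaesthetic sevoflurane, also at 6 h. The animals were described only as aged. No genotype, strain or further agent was named. Each library was made from a collagenase-digested cell suspension that had been frozen and thawed before droplet capture with 10x Genomics 3′ chemistry. The labels did not say whether replicates came from separate animals, so p-values measure only the spread between these libraries.

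Granule cells are the principal excitatory neurons of the dentate gyrus, the entry station of the hippocampal circuit. They receive glutamatergic input from the entorhinal cortex on their dendrites, and their axons, the mossy fibres, form large glutamatergic terminals on CA3 pyramidal neurons and hilar cells. The homeobox transcription factor PROX1 specifies and marks granule cells, and new granule cells can be added from a neurogenic niche in the dentate gyrus. Sevoflurane acts on GABA-A receptors and other neuronal ion channels, and the study's title concerns FKBP5, a glucocorticoid-induced co-chaperone, in microglia.

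The libraries held 7103 to 8577 barcodes and 41164947 to 47886816 UMIs each. The cells that met the rule carried a median of 5622 to 8121 UMIs per library, the highest in sevoflurane replicate 3. A shared barcode sequence was found in 2 or more libraries for 261 sequences; 76 cells that met the rule had a sequence seen in another library, and 5 sequences met the rule in 2 or more libraries. Doublets were not removed, because the rule removes none. The scrublet caller marked 14 to 213 of the rule's cells per library, and results without them are given where they moved.

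The share of granule-like neurons ranged from 3.93% to 53.9% between libraries. They made up 22.5% (1445 of 6409), 6.55% (374 of 5707) and 14.6% (935 of 6414) of the barcodes with at least 2000 UMIs in control replicates 1 to 3. The sevoflurane libraries held 23.5% (1406 of 5987), 53.9% (3052 of 5667) and 3.93% (243 of 6176). Both the highest and the lowest share were thus found in sevoflurane libraries, and the groups overlapped. The mean share was 14.6% ± 7.997 (SD, n = 3) in controls and 27.1% ± 25.2 (SD, n = 3) with sevoflurane, and the difference of 12.5 percentage points gave p = 0.6 in an exact two-sided permutation test, whose smallest possible p is 0.1. Without sevoflurane replicate 2 the difference was -0.850 points (exact permutation p = 1). Without sevoflurane replicate 3 it was 24.1 points (exact permutation p = 0.2, the smallest that 3 libraries against 2 allow). Counting error was small beside this spread, with 95% exact binomial intervals of 52.5 to 55.2% for sevoflurane replicate 2 and 3.46 to 4.45% for sevoflurane replicate 3. Intervals here cover counting error only. How much of the dentate gyrus each dissection held was not given.

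**Figure D1:**
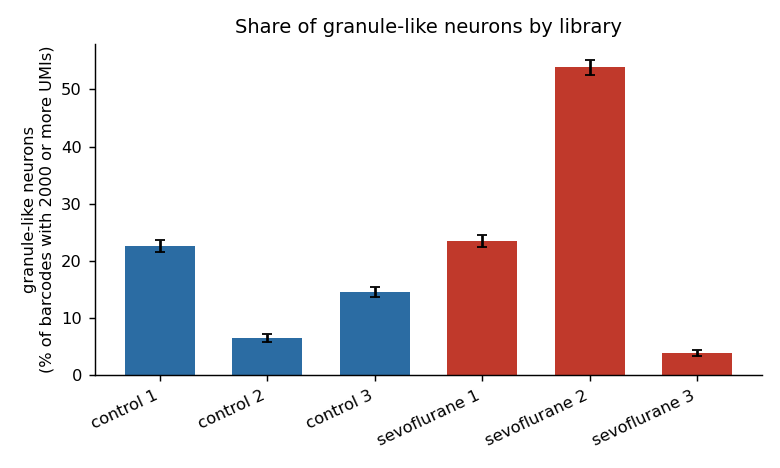
Bars show the percentage of barcodes with at least 2000 UMIs that met the granule-like rule in each library (blue, control; red, sevoflurane), and error bars are 95% exact binomial intervals. The shares ran from 3.93% in sevoflurane replicate 3 to 53.9% in sevoflurane replicate 2, with the 3 controls between them.

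The 8 genes of the rule are described first, with no test, because they chose the cells. SYNPR encodes synaptoporin, a synaptic vesicle protein of mossy fibre terminals. Its UMIs, summed over the cells and scaled to the total of the same cells (CPM), came to 794, 685 and 895 in control replicates 1 to 3 and 956 and 861 in sevoflurane replicates 1 and 2, but 384 in sevoflurane replicate 3. TRHR, the receptor for thyrotropin-releasing hormone, stood at 70.3, 65.8 and 92.1 CPM in controls and 108 and 100.4 CPM in sevoflurane replicates 1 and 2. In sevoflurane replicate 3 a single TRHR UMI was found over 243 cells, so LAMA3 admitted nearly all of them. LAMA3, a laminin chain, stood at 526, 320.02 and 387 CPM in controls and at 663, 770.2 and 451 CPM in sevoflurane replicates 1 to 3. GSG1L, an auxiliary subunit of AMPA receptors, stood at 271 to 439 CPM in controls and 513 and 528 CPM in sevoflurane replicates 1 and 2. COL25A1, a membrane-bound collagen, ran from 792 to 1037 CPM in the first 5 of these libraries and stood at 36.2 CPM in sevoflurane replicate 3. CCDC85A (827 to 1587 CPM), OLFM3 (553 to 1143 CPM) and SIDT1 (236 to 354 CPM) were likewise lower in sevoflurane replicate 3, except that OLFM3 there, at 626 CPM, exceeded control replicate 2. In that library 43.2% of the cells held only 4 of the 8 genes, against 1.41% to 13.9% in the others, and 1.23% held 7 or 8, against 43.9% to 72.8%.

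Genes that the rule did not use gave a check on the label, and they fitted it in 5 libraries and went against it in the sixth. PROX1 stood at 136, 85.5 and 153 CPM in the granule-like cells of control replicates 1 to 3 and at 143 and 129 CPM in sevoflurane replicates 1 and 2. In the other glutamatergic neurons of these libraries it stood at 6.66 to 13.3 CPM. Those neurons held at least 2000 UMIs and 2 of 10 markers of excitatory neurons, with the same limit on GAD1 and GAD2, and did not meet the rule. PROX1 was therefore at least an order of magnitude higher in the granule-like cells of each of these 5 libraries. In sevoflurane replicate 3 it stood at 19.03 CPM in the rule's cells and 7.82 CPM in the other glutamatergic neurons. The other glutamatergic class also held astrocyte RNA, with 9 astrocyte markers summing to 1467 to 3228 CPM per library. The rule's cells held 406 to 804 CPM of these markers, and all remaining barcodes 2456 to 4013 CPM. After each cell was thinned to 2000 UMIs, a PROX1 UMI was found in 24.4%, 17.1% and 27.5% of the granule-like cells of control replicates 1 to 3, and in 25.5%, 22.1% and 4.53% of the rule's cells in sevoflurane replicates 1 to 3. The same share was 2.29 to 3.39% among other glutamatergic neurons and 4.27 to 8.83% among all remaining barcodes of the first 5 libraries. The 8 genes of the rule summed to 1340 to 2522 CPM in those remaining barcodes, against 806 to 1097 CPM in other glutamatergic neurons. Whether the remaining barcodes include granule cells that missed the rule was not tested, so their share is not a pure background.

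Several further granule cell genes outside the rule gave the same division between libraries. ZBTB20, a zinc finger transcription factor of hippocampal neurons, stood at 569.8, 349.7 and 626 CPM in controls and 681 and 734 CPM in sevoflurane replicates 1 and 2, but 25.99 CPM in sevoflurane replicate 3. In control replicate 2 a ZBTB20 UMI was found after thinning in 40.4% of granule-like cells and 43.0% of other glutamatergic neurons. DOCK10, a guanine nucleotide exchange factor, ran from 481 to 850.2 CPM in 5 libraries, above its 142 to 261 CPM in other glutamatergic neurons, and stood at 85.9 CPM in sevoflurane replicate 3. MAML2, a co-activator of Notch signalling, ran from 479.7 to 905 CPM and stood at 45.95 CPM in that library. C1QL3, a secreted synapse-organising protein of the C1q-like family, ran from 31.9 to 57.97 CPM and stood at 3.71 CPM there. BCL11B, a zinc finger transcription factor, ran from 192 to 222 CPM and stood at 16.2 CPM there. CALB1, the calcium buffer calbindin, was low throughout, at 17.96 to 29.1 CPM in 5 libraries and 3.25 CPM in sevoflurane replicate 3. DSP went the other way. After thinning, a DSP UMI was found in 0% to 0.535% of granule-like cells in the first 5 libraries. The share was 0.391% to 1.14% in their other glutamatergic neurons, and higher in each library. TDO2, NEUROD1 and NEUROD2 were each found in at most 0.284% of these granule-like cells. Of the 20 identity genes outside the rule, 16 to 19 were higher than in other glutamatergic neurons in the first 5 libraries and 10 in sevoflurane replicate 3. An excess of more than 2-fold was seen for 8 of 20 in control replicate 2, 13 or 14 in the other 4 libraries and 4 in sevoflurane replicate 3. Among all genes above an abundance limit in either class, 1.06% to 4.64% showed one. The 20 identity genes were counted without that limit.

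Markers of pyramidal neurons were mixed in sevoflurane replicate 3. Of 12, its rule-passing cells held 6 above the range of the other 5 libraries, 3 below and 3 within it, and the list's sum of 2561 CPM lay within their 2538 to 2941 CPM. RORB, a nuclear receptor of cortical excitatory neurons, stood at 404 CPM in its rule-passing cells. The granule-like cells of the other libraries held 5.59 to 39.00 CPM of RORB. SHISA6, an auxiliary protein of AMPA receptors, went the other way, at 167 CPM against 583 to 677 CPM. Across 13222 genes the summed profile of those 243 cells correlated with that of the other glutamatergic neurons of the same library at r = 0.975, and with the granule-like cells of the other libraries at r = 0.892 to 0.926. Among the other 5 libraries, granule-like profiles correlated at r = 0.951 to 0.984 with each other. With the other glutamatergic neurons of their own library they correlated at r = 0.934 to 0.964, so these ranges overlapped. These correlations run across genes, share sequencing libraries, and describe likeness only. The 243 cells of sevoflurane replicate 3 met the rule but lacked the granule cell profile, so they are called rule-passing cells, and the counts of calls and the list medians below are given with and without that library.

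**Figure D2:**
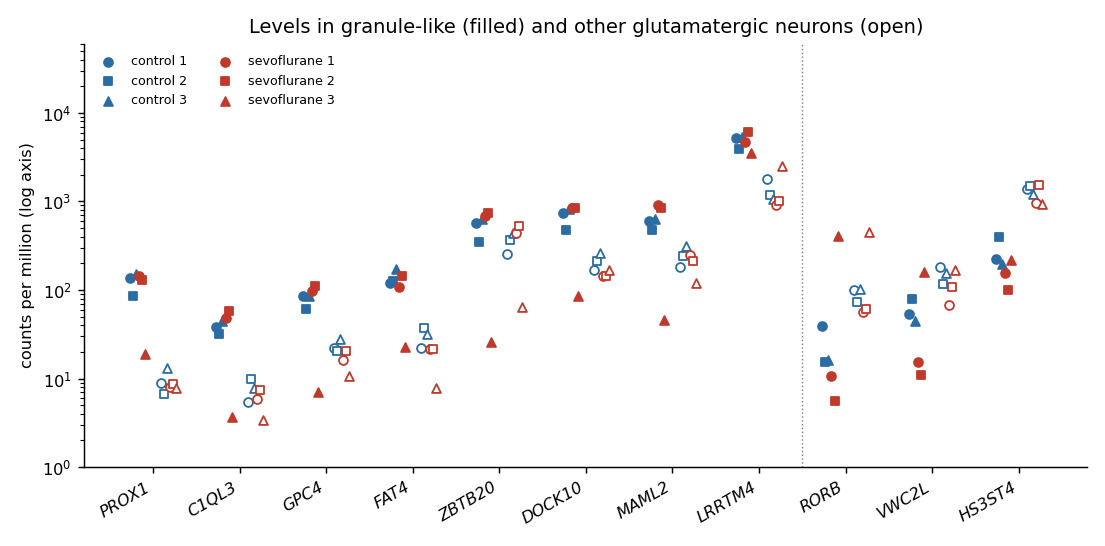
Each point is the summed level of a gene in 1 library in CPM on a log axis, for granule-like or rule-passing cells (filled) and other glutamatergic neurons (open); blue is control, red is sevoflurane, and the dotted line separates granule cell genes from genes of other excitatory neurons. The filled triangle in red, sevoflurane replicate 3, lies below the other filled points for PROX1, at 19.0 CPM, and above them for RORB, at 404 CPM.

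PROX1 was compared between cells with few and with many UMIs of the entry genes. In control replicate 1, a PROX1 UMI was found after thinning in 21.0% of the 309 cells admitted by 1 UMI of LAMA3 or TRHR and in 29.2% of the 438 cells with 5 to 9. In sevoflurane replicate 2 the shares were 19.6% of 240 cells and 22.5% of 1240 cells. In sevoflurane replicate 3 they were 1.28% of 78 cells with 1 entry UMI and 11.9% of 42 cells with 5 to 9. In control replicate 2 they were 11.9% of 109 cells and 16.7% of 72 cells. Cells that entered on 1 UMI thus held PROX1 well above the rate of sevoflurane replicate 3 in each of these 3 libraries. Cells with a sum of 15 to 17 per 10000, just inside the limit, held 2.65 to 35.5 CPM of PROX1 in the 6 libraries, and those with 13 to 15, just outside, held 0 to 8.49 CPM. These border cells numbered 9 to 42 per library inside the limit. Their median was 9193 UMIs in sevoflurane replicate 3 and 3260 UMIs in sevoflurane replicate 2, which had 9 such cells.

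**Figure D3:**
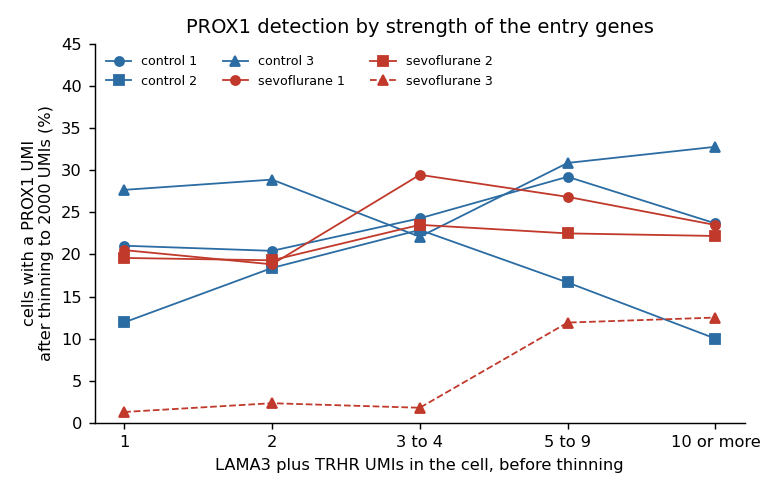
Lines show the percentage of rule-passing cells with a PROX1 UMI after thinning to 2000 UMIs, by their LAMA3 plus TRHR UMIs before thinning, in each library (blue, control; red, sevoflurane; dashed, sevoflurane replicate 3). Sevoflurane replicate 3 ran from 1.28% to 12.5% and stayed below the other libraries except at 10 or more entry UMIs, where control replicate 2 had 10.0% of 10 cells.

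Beyond the markers, the genes with the largest excess in granule-like over other glutamatergic neurons are a description, since the same cells were chosen by expression. Ranked by the smallest ratio over 5 libraries, with sevoflurane replicate 3 left out of the ranking, PROX1 came first. SLC35F4, a solute carrier, ran from 179 to 293 CPM in granule-like cells and from 15.3 to 47.6 CPM in other glutamatergic neurons. SLC47A1, a multidrug and toxin extrusion transporter, ran from 36.5 to 154 CPM against 4.05 to 13.3 CPM. TRPC6, a cation channel of the TRP family, ran from 53.9 to 109 CPM against 5.19 to 11.6 CPM. The surface proteins THSD7B (237 to 426 against 19.4 to 72.7 CPM), GPC3, a glypican (29.9 to 51.6 against 3.22 to 9.74 CPM), and FAT4, an atypical cadherin (108 to 174 against 21.4 to 37.7 CPM), followed. Adhesion and synapse-organising genes stood out by abundance. LRRTM4, a postsynaptic organiser of excitatory synapses on granule cell dendrites, ran from 3870 to 6037 CPM against 904 to 1798 CPM. Its glypican partner GPC4 ran from 60.3 to 111 CPM against 16.2 to 28.2 CPM. CDH9, a cadherin, ran from 912 to 1101 CPM against 244 to 360 CPM, and CNTN5, a contactin, from 1632 to 2069 CPM against 222 to 678 CPM. KIRREL3, an adhesion protein of mossy fibre synapses, ran from 2066 to 2404 CPM against 613 to 1185 CPM. Genes lower in granule-like cells included PIEZO2, a mechanosensitive channel (4.08 to 36.8 against 65.7 to 284 CPM), and CADPS2, a factor of dense-core vesicle release (34.4 to 137 against 501 to 854 CPM). The glial genes SLC1A3 and ALDH1L1 were also lower, at 18.9 to 36.4 against 94.5 to 234 CPM and at 4.52 to 10.8 against 30.2 to 43.2 CPM. Because the other glutamatergic class held more astrocyte marker RNA, these gaps are not read as differences between neurons.

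Among granule-like cells, ERBB4 had the widest spread from cell to cell in 5 libraries. The spread between cells was measured as the Fano factor, the variance of thinned UMIs divided by their mean, which is near 1 for counting noise. Over 3032 genes with a mean of at least 0.1 UMI, the median of the lowest value over 5 libraries was 1.01, and 13 genes exceeded 2 in all 5. The range over 5 libraries was 5.92 to 20.6 for ERBB4, a neuregulin receptor of interneurons, and, by the lowest value over the 5, it was followed by SGCZ (4.05 to 6.07), ASIC2, an acid-sensing channel (3.25 to 5.51), and HS3ST4 (3.20 to 5.72). The identity genes varied far less, with 0.984 to 1.06 for PROX1, 1.04 to 1.15 for TRHR and 1.30 to 1.43 for CCDC85A. LRRTM4 (2.23 to 3.40) and KCNIP4, a Kv channel-interacting protein (2.56 to 7.03), varied more, at means of 8.003 to 12.2 and 27.9 to 41.2 UMIs per cell. Cells with at least 5 thinned ERBB4 UMIs, a limit set after the values were seen, made up 2.91%, 11.0% and 3.53% of the granule-like cells in controls. They made up 1.64%, 0.819% and 21.4% of the rule's cells in sevoflurane replicates 1 to 3. In controls these cells carried 1.39 to 1.57 UMIs of ADARB2, an interneuron gene, per cell, against 0.0610 to 0.0763 in the remaining cells. They held little RFX3 (0.0476 to 0.242 against 0.823 to 1.07 UMIs per cell) and little CCDC85A (0.390 to 0.545 against 1.76 to 2.35 UMIs per cell). Scrublet marked 9.09% to 12.2% of them in controls and 3.90% to 8.87% of the rest. PROX1 overlapped in controls, at 0.122 to 0.364 against 0.195 to 0.334 UMIs per cell, so it did not set these cells apart from the rest. In sevoflurane replicate 3 the 52 cells rich in ERBB4 held 3.48 LAMA3 and 0.154 PROX1 UMIs per cell. Its remaining cells held 0.613 and 0.0209. Their part in the rise of PROX1 with entry UMIs in that library was not tested.

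The study's comparison is between sevoflurane and control. With all 6 libraries, no gene passed, and PROX1 and the other identity genes gave no call. Without sevoflurane replicate 3, whose cells lacked the granule profile, 13 genes changed, most of them downward. FBXL7, an F-box protein that selects substrates for a ubiquitin ligase, had the smallest p and was 4.06-fold higher with sevoflurane. The kainate receptor subunit GRIK3 and the Ras-MAPK inhibitor SPRED1 were among those lower.

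Raw UMIs were summed per library and tested with edgeR's quasi-likelihood test with Benjamini-Hochberg adjustment at an adjusted p of 0.05. In the 6 libraries 0 of 14595 genes (0.0%) passed, while 947 (6.49%) had an unadjusted p under 0.05. DESeq2's Wald test passed 70 genes in the same libraries, 19 higher and 51 lower. Without sevoflurane replicate 3, edgeR passed 13 of 15206 genes (0.0855%), 3 higher (0.0197%) and 10 lower (0.0658%), and 2045 (13.4%) had an unadjusted p under 0.05. DESeq2 passed 536, 107 higher and 429 lower. The count rested on few libraries. Leaving out 1 more gave 1 gene without control replicate 1, 1 without control replicate 2, 3 without control replicate 3, 120 without sevoflurane replicate 1 and 4 without sevoflurane replicate 2. Over 14 alternatives of scaling, filter, limits, test, block and left-out libraries, all without sevoflurane replicate 3, FBXL7 passed in 14 and the other 12 genes in 8 to 10. The sets with both entry genes and without cells rich in ERBB4 are counted apart. In granule-like cells with both LAMA3 and TRHR detected, 2688 cells in 5 libraries, 74 of 12504 genes (0.592%) passed, 12 higher (0.096%) and 62 lower (0.496%), and 10 of the 13 were among them. In that stricter set all 13 had the same sign. Its cells are part of the same granule-like cells in the same 5 libraries. Its signs and calls, here and below, are therefore not a separate check on the full set. This set was defined after the data were seen.

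FBXL7 stood at 96.2, 82.3 and 95.6 CPM in the granule-like cells of control replicates 1 to 3 and at 379 and 409 CPM in sevoflurane replicates 1 and 2. The 2 groups were far apart, and the rule-passing cells of sevoflurane replicate 3, at 95.6 CPM, sat among the controls. Its log2 fold change was 2.02 ± 0.10 (SE, adjusted p = 0.00159), and with all 6 libraries 1.61 ± 0.49 (adjusted p = 0.651). In other glutamatergic neurons FBXL7 ran from 119.9 to 164 CPM in controls and 142 to 145 CPM in sevoflurane replicates 1 and 2, which overlapped. NUP210L, which resembles a nuclear pore protein, rose from 21.04, 22.9 and 20.5 CPM to 49.5 and 57.1 CPM (log2 fold change 1.24 ± 0.13, adjusted p = 0.0366), with 14.9 CPM in sevoflurane replicate 3. The third gene that rose, ENSCJAG00000067748, carried no symbol and stood at 90.6 to 97.2 CPM in controls and 189 to 205 CPM in sevoflurane replicates 1 and 2.

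Among the genes that fell, GRIK3 encodes a subunit of kainate-type glutamate receptors, which act at mossy fibre synapses. It stood at 47.4, 43.9 and 51.2 CPM in controls and at 13.2 and 17.5 CPM in sevoflurane replicates 1 and 2. Sevoflurane replicate 3, at 22.3 CPM, lay on the same side. The log2 fold change was -1.71 ± 0.16 (adjusted p = 0.0366) without that library and -1.54 ± 0.20 with it (adjusted p = 0.393). FSTL5, a secreted follistatin-like protein, stood at 308, 253 and 247 CPM against 106 and 127 CPM, and at 109 CPM in sevoflurane replicate 3 (log2 fold change -1.30 ± 0.14, adjusted p = 0.0366). SPRED1, an inhibitor of Ras-MAPK signalling, stood at 119, 171 and 154 CPM against 55.3 and 46.9 CPM (log2 fold change -1.61 ± 0.18, adjusted p = 0.0366), with 77.05 CPM in sevoflurane replicate 3. Its paralogue SPRED2 stood at 64.4, 103 and 131 against 42.4 and 32.9 CPM and did not pass (adjusted p = 0.104). These 3 genes that fell were below every control in all 3 sevoflurane libraries.

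ANKRD55, an ankyrin repeat protein, stood at 47.4, 60.97 and 55.4 CPM in controls, 7.02 and 12.96 CPM in sevoflurane replicates 1, 2 and 1.39 CPM in sevoflurane replicate 3, so the groups did not overlap (log2 fold change -2.50 ± 0.26, adjusted p = 0.0366). MYO16, an unconventional myosin of neurons, stood at 214 to 253 CPM in controls and 97.8 to 111 CPM in sevoflurane replicates 1 and 2 (adjusted p = 0.0366), with 36.7 CPM in sevoflurane replicate 3. ARHGAP8, a GTPase-activating protein of low abundance, stood at 10.5, 17.1 and 11.7 CPM against 2.24 and 2.35 CPM (adjusted p = 0.0424). It was below the abundance limit for naming and is given because it was 1 of the 13. ENSCJAG00000064473, without a symbol, stood at 51.3 to 54.4 CPM in controls and 20.4 to 24.8 CPM in sevoflurane replicates 1 and 2. In all, 7 of the 13 had sevoflurane replicate 3 on the sevoflurane side of every control. Over all genes tested in 6 libraries, 2239 of 14595 (15.3%) had no overlap between the groups. The 13 had been chosen by the other 5 libraries, and the cells of sevoflurane replicate 3 lacked the granule profile. The count is therefore not read as a repeat of the result.

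TSHZ2, THSD4 and FAT3 fell without sevoflurane replicate 3 and were highest in its rule-passing cells. TSHZ2, a teashirt-family transcription factor, stood at 129.8, 143 and 124 CPM against 46.5 and 39.7 CPM (log2 fold change -1.70 ± 0.13, adjusted p = 0.0161), and at 162 CPM in sevoflurane replicate 3. FAT3, an atypical cadherin, stood at 141 to 182 CPM in controls and 70.3 to 72.4 CPM in sevoflurane replicates 1 and 2 (adjusted p = 0.0366) and stood at 350.4 CPM in sevoflurane replicate 3. THSD4, an extracellular matrix protein, stood at 59.8 to 103 CPM in controls and 19.8 to 20.5 CPM in sevoflurane replicates 1 and 2 (adjusted p = 0.0366) and stood at 206 CPM there. All 3 were more abundant in the other glutamatergic neurons of control replicates 1 and 3. Of the 10 genes that fell, 4 were higher in other glutamatergic than in granule-like neurons in 3 of 3 control libraries. With both LAMA3 and TRHR detected, THSD4 and FAT3 did not pass (adjusted p = 0.260 and 0.156), and TSHZ2 did (adjusted p = 0.0228).

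**Figure D4:**
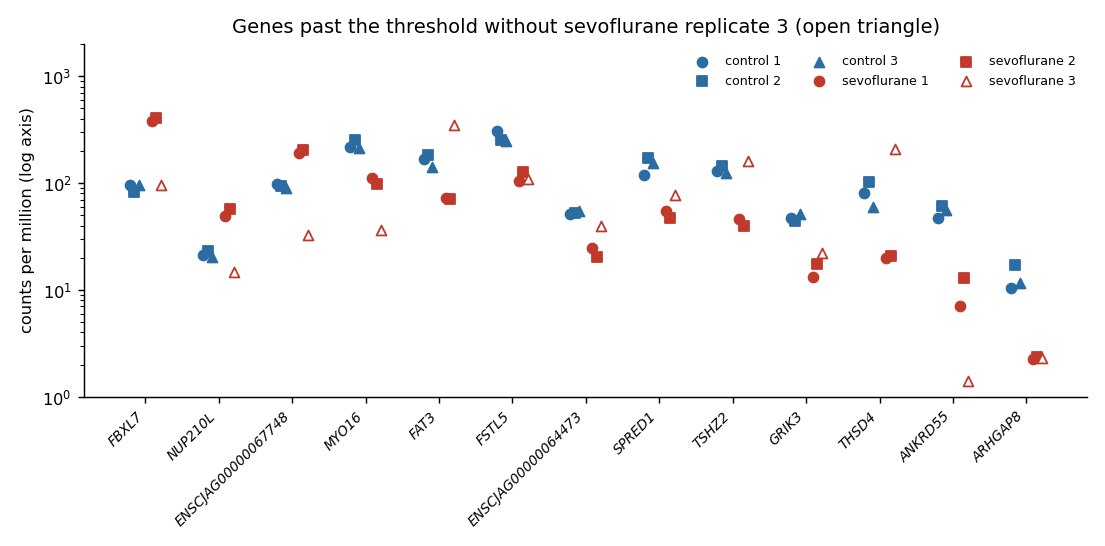
Points show CPM on a log axis for the 13 genes with an adjusted p under 0.05 when sevoflurane replicate 3 is left out, in each library (blue, control; red, sevoflurane; open triangle, sevoflurane replicate 3, not in the test). FBXL7 lies at 82.3 to 96.2 CPM in controls and 379 to 409 CPM in sevoflurane replicates 1 and 2, and the open triangle lies among or beyond the controls for 6 of the 13.

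Some genes had small p-values in both fits without passing. FBXL13, another F-box protein, stood at 105, 100.01 and 94.4 CPM in controls and at 168, 174 and 171 CPM in the 3 sevoflurane libraries (log2 fold change 0.70 ± 0.11 in 6 libraries, adjusted p = 0.393). AGBL3, a cytosolic carboxypeptidase, stood at 10.1, 13.5 and 7.46 CPM against 31.8, 31.7 and 48.3 CPM, and at 9.84 to 13.6 against 29.1 to 35.95 and 49.7 CPM in other glutamatergic neurons. TENM3, a teneurin of synaptic wiring, stood at 574, 581 and 564 CPM against 367, 302 and 311 CPM (adjusted p = 0.393). KCNB2, a voltage-gated potassium channel, stood at 398, 456 and 381 CPM against 249, 248 and 220.5 CPM (adjusted p = 0.393). For these 4 genes the 3 sevoflurane libraries lay on one side of the 3 controls. That was so for 2239 of 14595 genes (15.3%).

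Glutamate receptor genes leaned lower without sevoflurane replicate 3. Of 24 listed genes of ionotropic and metabotropic receptors, 23 were tested, and 18 of them had a negative log2 fold change. The median was -0.30, against 0.01 over all genes tested, of which 51.3% were positive. GRIK3 passed, and 13 of 23 had an unadjusted p under 0.05, 12 of them lower and 1 higher, against 8.42% and 5.02% of all genes. With all 6 libraries 16 of 23 were negative, the median was -0.27 and none passed, while 53.6% of all genes were positive and their median was 0.02. GRIK1, another kainate subunit, stood at 76.1, 153 and 90.7 CPM in controls and 31.04 and 23.3 CPM in sevoflurane replicates 1 and 2, and at 115 CPM in sevoflurane replicate 3 (log2 fold change -2.04 ± 0.31, adjusted p = 0.0642). GRIA4, an AMPA receptor subunit, stood at 571, 496 and 516 CPM against 347 and 339 CPM, and at 547 CPM in sevoflurane replicate 3 (log2 fold change -0.70 ± 0.10, adjusted p = 0.0642). GRM8, a presynaptic metabotropic receptor, stood at 175, 224 and 67.9 CPM against 20.8 and 17.8 CPM, and at 228 CPM in sevoflurane replicate 3 (adjusted p = 0.0642). With both entry genes detected, GRIK3, GRIA4 and GRIK1 passed (adjusted p = 0.0199, 0.0228 and 0.0330), and the list's median was -0.26. The abundant subunits lay nearer to 0, with log2 fold changes of 0.00 ± 0.10 for GRIA2, -0.09 ± 0.14 for GRIN1 and -0.31 ± 0.09 for GRIK2. Because sevoflurane replicate 3 lay among or above the controls for GRIK1, GRIA4 and GRM8, these values rest on 2 sevoflurane libraries.

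Genes of the mossy fibre synapse showed a similar lean. All 26 listed genes were tested without sevoflurane replicate 3, 18 had a negative log2 fold change, and the median was -0.26, against 51.3% positive over all genes. None passed, and 12 had an unadjusted p under 0.05, all 12 lower, against 8.42% of all genes lower. Of the same genes 19 were negative with all 6 libraries, the median was -0.15 and none passed. TENM2, a teneurin adhesion protein, stood at 3278, 4223 and 3388 CPM in controls, 2178 and 2193 CPM in sevoflurane replicates 1, 2 and 2261 CPM in sevoflurane replicate 3, below every control (log2 fold change -0.81 ± 0.13, adjusted p = 0.0649). It passed in cells with both entry genes (adjusted p = 0.0341). The kainate subunit GRIK4 (-0.50 ± 0.12) and the active zone protein RIMS1 (-0.40 ± 0.11) had negative log2 fold changes that did not pass. SLC30A3, the zinc transporter that fills mossy fibre vesicles, stood at 13.5, 8.07 and 11.2 CPM against 17.2 and 15.4 CPM. LRRTM4 was on the list too, though described above as an organiser on granule cell dendrites, and had a log2 fold change of 0.07 ± 0.17.

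**Figure D5:**
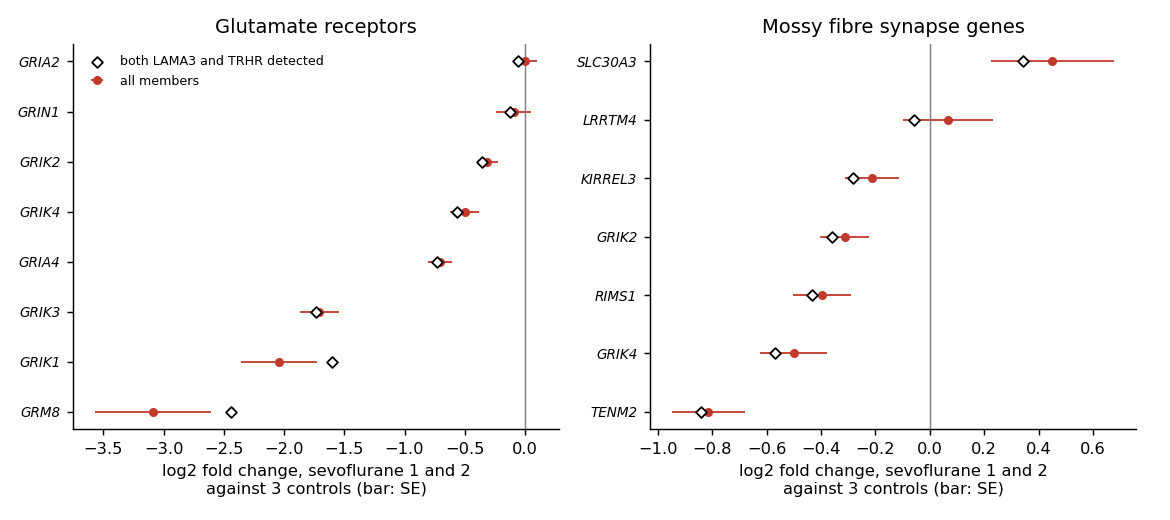
Red points are log2 fold changes of sevoflurane replicates 1 and 2 against 3 controls in granule-like cells, with SE bars. The genes are those named in the text from the glutamate receptor list (left) and the mossy fibre synapse list (right). GRIK2 and GRIK4 are in both lists. Open diamonds are the same in cells with both LAMA3 and TRHR detected. GRIK3 lies at -1.71 and -1.74, TENM2 at -0.81, and LRRTM4 at 0.07 with an SE of 0.17.

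Ion channels and the GABA-A receptor, a target of sevoflurane, gave no call in either fit. Without sevoflurane replicate 3 the medians were -0.08 for 13 tested GABA-A receptor genes, -0.11 for 29 potassium channel genes and -0.17 for 25 sodium, calcium and pacemaker channel genes. Negative values were found for 10 of 13, 18 of 29 and 16 of 25. Unadjusted p-values under 0.05 were found for 4, 7 and 8, all lower, against 8.42% of all genes. The medians with all 6 libraries were -0.09, 0.00172 and 0.00222, with 9 of 13, 14 of 28 and 12 of 25 negative. GABRA2, the α2 subunit, stood at 652, 631 and 805 CPM in controls and 574 and 593 CPM in sevoflurane replicates 1 and 2 (log2 fold change -0.34 ± 0.12, adjusted p = 0.288). GABRD, the δ subunit of extrasynaptic receptors on granule cells, stood at 15.5, 9.03 and 9.78 CPM against 9.46 and 14.4 CPM and overlapped.

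Genes of neurogenesis and immaturity were low in these cells. MKI67, a proliferation marker, was at 0 in 5 of 6 libraries, and DCX, the doublecortin of immature neurons, stood at 32.8, 29.4 and 28.4 CPM in controls, 22.5 and 13.8 CPM in sevoflurane replicates 1, 2 and 33.4 CPM in sevoflurane replicate 3. In other glutamatergic neurons DCX was more abundant, at 47.02 to 52.5 CPM in the first 5 libraries. Of 19 listed genes 14 were tested without sevoflurane replicate 3, 13 had a negative log2 fold change, the median was -0.47 and none passed. Over all genes 51.3% were positive. An unadjusted p under 0.05 was found for 4 of the 14, all lower, against 8.42% of all genes lower. With all 6 libraries 10 of 12 were negative (median -0.36) and none passed, while 53.6% of all genes were positive. ELAVL4, a neuronal RNA-binding protein, stood at 65.8, 76.5 and 69.5 CPM against 41.7 and 39.5 CPM (log2 fold change -0.88 ± 0.13, adjusted p = 0.0642), with 101 CPM in sevoflurane replicate 3. The share of cells with a DCX UMI after thinning was 6.09%, 5.88% and 5.67% in controls and 3.98%, 2.36% and 4.12% in sevoflurane replicates 1 to 3. The mean was 5.88% ± 0.211 (SD, n = 3) against 3.49% ± 0.978 (SD, n = 3), lower in 3 of 3 sevoflurane libraries (exact two-sided permutation p = 0.1, the smallest possible; 0.3 after Benjamini-Hochberg adjustment over 3 genes). The unthinned means were 17.5% and 13.5% (exact permutation p = 0.4), with sevoflurane replicate 3 the highest at 21.0%. In other glutamatergic neurons the thinned share was 7.41 to 10.1% and in the remaining barcodes 9.50 to 12.04% in the first 5 libraries. The granule-like share was thus below that of both other classes in each of these libraries, so it is not read as expression above background.

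Immediate early genes, which neurons switch on after activity, were near the detection limit. FOS UMIs were found after thinning in 0.208%, 0.267% and 0.749% of control granule-like cells and in 0.0711%, 0% and 0.412% of the rule's cells with sevoflurane. A count of 0 of 3052 cells, in sevoflurane replicate 2, allows a share of cells with a FOS UMI of up to 0.0983%. The means of 0.408% ± 0.297 and 0.161% ± 0.220 (SD, n = 3 each) gave p = 0.4 in the exact permutation test (0.6 adjusted over 3 genes). ARC was at 0 in every library, and NPAS4 in 5 of 6. Of 22 listed genes 12 were tested without sevoflurane replicate 3, 6 of them in each direction, the median was 0.03 and none passed. Unadjusted p-values under 0.05 were found for 3 lower and 1 higher, against 8.42% and 5.02% of all genes. In the fit of all 6 libraries 8 of 11 were negative (median -0.04) and none passed. NR4A3, a nuclear receptor induced by activity, stood at 8.72, 20.6 and 21.4 CPM against 4.78 and 5.59 CPM, with 0.464 CPM in sevoflurane replicate 3 (adjusted p = 0.137). HOMER1, a postsynaptic scaffold with an activity-induced short form, stood at 166, 257 and 187 CPM against 115 and 107 CPM (adjusted p = 0.104), and BDNF, the neurotrophin, at 53.4, 56.1 and 61.9 CPM against 67.1 and 98.9 CPM (adjusted p = 0.296).

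FKBP5, which binds the glucocorticoid receptor complex and is induced by it, did not separate the groups in these neurons. It stood at 87.3, 44.8 and 63.2 CPM in controls, 77.1 and 80.1 CPM in sevoflurane replicates 1, 2 and 27.4 CPM in sevoflurane replicate 3. Its log2 fold change was -0.14 ± 0.41 in 6 libraries (adjusted p = 0.994) and 0.17 ± 0.24 without sevoflurane replicate 3 (adjusted p = 0.818). An FKBP5 UMI was found after thinning in 15.7%, 9.63% and 10.6% of control cells and in 13.7%, 13.7% and 4.53% of cells with sevoflurane, means of 11.97% ± 3.27 and 10.7% ± 5.31 (SD, n = 3 each; exact permutation p = 0.8, also 0.8 after adjustment over 3 genes). The difference of -1.31 points became 1.75 points without sevoflurane replicate 3 (exact permutation p = 0.6) and 0.554 points without control replicate 1 (exact permutation p = 1). In other glutamatergic neurons the thinned share was 9.54%, 7.94% and 8.401% in controls and 11.76%, 15.02% and 10.31% with sevoflurane. Every sevoflurane library thus lay above every control in that class, a difference that was not tested. That class also held astrocyte marker RNA, whose part in the difference was not tested. In the remaining barcodes the thinned share was 10.4%, 9.55% and 9.89% in controls and 18.2%, 18.8% and 16.1% with sevoflurane. The granule-like share was above it in all 3 controls and below it in all 3 sevoflurane libraries. The glucocorticoid receptor gene NR3C1 stood at 92.3 to 111 CPM in the first 5 libraries and 267 CPM in sevoflurane replicate 3, and the mineralocorticoid receptor gene NR3C2, which is more abundant in hippocampal neurons, at 610.04 to 875 CPM and 448 CPM. Of 21 listed glucocorticoid response genes 15 were tested without sevoflurane replicate 3, 8 were positive, the median was 0.17 and none passed. The same count, 8 of 15, was positive with all 6 libraries (median 0.15). SGK1, a kinase induced by glucocorticoids, stood at 181, 219 and 243 CPM against 154 and 136 CPM (adjusted p = 0.137), and DDIT4, an inhibitor of mTOR signalling, at 8.21, 5.81 and 8.49 CPM against 15.3 and 15.1 CPM (adjusted p = 0.140).

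Housekeeping groups gave no call in either fit. Without sevoflurane replicate 3, 22 of 23 tested ribosomal protein genes were positive (median 0.28), 20 of 22 genes of the nuclear-encoded respiratory chain (median 0.15) and 18 of 19 genes of cholesterol synthesis (median 0.31), against 51.3% of all genes. With all 6 libraries 12 of 23, 15 of 22 and 17 of 18 were positive, with medians of 0.04, 0.04 and 0.42, against 53.6% of all genes, so the ribosomal count depends on leaving out sevoflurane replicate 3. The ribosomal sums overlapped, at 436 to 939.8 CPM in controls and 319 to 944 CPM with sevoflurane. RPS27 stood at 22.4, 19.4 and 24.6 CPM in controls and 26.6 and 39.9 CPM in sevoflurane replicates 1 and 2, and at 13.9 CPM in sevoflurane replicate 3. RPL11 stood at 31.6, 29.7 and 54.9 CPM against 48.03 and 60.9 CPM and overlapped. FDFT1, squalene synthase, stood at 26.2, 26.1 and 25.99 CPM in controls and 33.4, 36.6 and 32.95 CPM in sevoflurane replicates 1 to 3. In the fit without sevoflurane replicate 3 its log2 fold change was 0.34 ± 0.13 (adjusted p = 0.310). SDHA, a subunit of respiratory complex II, stood at 32.1, 28.1 and 33.96 CPM against 43.4 and 41.8 CPM in sevoflurane replicates 1 and 2 (adjusted p = 0.324 in the same fit). Heat shock and chaperone genes had a median of -0.15 over 19 tested, and clock genes one of -0.09 over 18. In 6 libraries they were -0.27 over 19 and 0.04 over 16, and neither list had a call in either fit.

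Markers of other cells moved with the comparison, and their part in the results above was not tested. The 12 pyramidal neuron markers summed to 2769 to 2941 CPM in the granule-like cells of controls, 2787 and 2538 CPM in sevoflurane replicates 1, 2 and 2561 CPM in sevoflurane replicate 3. Their log2 fold changes without the last were negative for 11 of 12, with a median of -0.94, or -0.55 with both entry genes detected. Unadjusted p-values under 0.05 were found for 7 of the 12 without that library, all lower, against 8.42% of all genes lower. In 6 libraries 7 of 12 were negative and the median was -0.15. VWC2L stood at 54.1, 78.7 and 45.2 CPM against 15.5 and 10.9 CPM (adjusted p = 0.0589), and CPNE4 at 264, 203 and 217 CPM against 114 and 132 CPM (adjusted p = 0.0642). The 9 GABAergic markers summed to 133.5, 230.3 and 120.7 CPM in controls, 105.1 and 105.4 CPM in sevoflurane replicates 1, 2 and 200.05 CPM in sevoflurane replicate 3. Without the last, 5 of 7 tested GABAergic markers were negative, with a median log2 fold change of -0.97. Unadjusted p-values under 0.05 were found for 5 lower and 1 higher, against 8.42% and 5.02% of all genes. In 6 libraries 6 of 7 were negative and the median was -0.49. SLC32A1, the vesicular GABA transporter, was at 0 in all 6 libraries, and the remaining barcodes held 1110 to 1432 CPM of the list. GAD1 and GAD2 are in the list and were capped by the rule, so part of that gap was set by the choice of cells. The cells rich in ERBB4 made up a smaller share in sevoflurane replicates 1 and 2 than in controls. Without them and without sevoflurane replicate 3, 18 genes passed, including all 13. The median of the 6 GABAergic markers tested in that fit was -0.49, with 2 lower and 1 higher at an unadjusted p under 0.05. The 10 microglial markers summed to 30.9 to 39.0 CPM in all 6 libraries, against 126 to 246 CPM in the remaining barcodes. The 9 astrocyte markers summed to 646 to 804 CPM in controls, 674 and 588 CPM in sevoflurane replicates 1, 2 and 406 CPM in sevoflurane replicate 3.

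The difference of responses between granule-like and other glutamatergic neurons was then tested itself, with limma on the difference of log2 CPM within each library. With 6 libraries 0 of 14573 genes (0.0%) passed, and 594 (4.08%) had an unadjusted p under 0.05. Without sevoflurane replicate 3 limma passed 0 of 15172 genes (0.0%), and 1474 (9.72%) had an unadjusted p under 0.05. FBXL7 had a difference of 1.99 ± 0.18 (log2, SE) without sevoflurane replicate 3, larger in granule-like cells, and NRP1, a semaphorin co-receptor, -1.68 ± 0.15. Both had an adjusted p of 0.315. NRP1 stood at 265, 339 and 410.02 CPM in control and 131 and 182 CPM in sevoflurane granule-like cells, and at 353 to 557 and 495 to 709 CPM in the other glutamatergic neurons. THSD7A (1.07 ± 0.13) and SIPA1L2 (0.97 ± 0.12) followed among those with a positive difference. No change is therefore shown to be particular to granule-like neurons.

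Granule-like cells with sevoflurane showed slightly more genes at equal depth. After thinning to 2000 UMIs the median number of genes per cell was 1235, 1230 and 1233 in controls and 1263, 1274 and 1259 in sevoflurane replicates 1 to 3. The means were 1233 ± 2.52 and 1265 ± 7.77 (SD, n = 3 each). Every sevoflurane library lay above every control, the rule-passing cells of sevoflurane replicate 3 included, and an exact permutation test (two-sided) gave its lowest attainable p of 0.1. Without that library the difference was 35.8 genes (exact permutation p = 0.2, the smallest possible). Without thinning, the medians were 2556 to 2876 genes in controls and 2611 to 3292 with sevoflurane, and overlapped (exact permutation p = 0.8).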

How the data were processed

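Raw UMI counts per gene and barcode were deposited by the authors for 6 libraries, made with Cell Ranger 6.1.1 per the file headers; CASAVA 1.8 and Seurat are named in the submitters' processing notes. The genome build and annotation were not given in the sources used here. Of 29320 features, 15188 had a symbol in the files, 1347 took one from a table of gene names and 12785 had none. The granule-like cells and the gene lists were chosen with earlier results of these data known. Counts were summed per library over the cells of libraries with at least 50 of them, filtered with filterByExpr, scaled by TMM and tested with the quasi-likelihood test of edgeR 4.0.16 in R 4.3.3. Differences from other glutamatergic neurons were tested with limma 3.58.1 on log2 CPM with a prior count of 2. Shares and genes per cell were compared with exact permutation tests. Thinning drew 2000 UMIs per cell. Alternatives were DESeq2 1.42.0, other scaling, filters, limits and denominators, scrublet in scanpy 1.11.5, a replicate block and leaving out each library. The tests were also run on simulated counts with a fixed spread and the same mean profile in every library. That run does not cover libraries that differ in cell make-up, as these do.

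Genes named were those of the rule, PROX1 and FKBP5, called genes that had a symbol, did not overlap between groups and averaged 4 or more in log2 CPM, filled up to 10 per direction by smallest p, 5 per direction for the difference of responses, and up to 4 per list by smallest p with every called member. Some of those genes are given only by count. A few are not reported here. Other list members named, the leading and lower genes and the ERBB4 limit were chosen after values were seen. Repeating every setting without sevoflurane replicate 3, the cells with both LAMA3 and TRHR and the set without cells rich in ERBB4 were also added after the data were seen. Library totals ran from 41164947 to 47886816 UMIs, and the cells tested held 2154493 to 19132035 UMIs per library, the fewest in sevoflurane replicate 3, where low genes were least precise.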

Additional observations from a re-analysis of the deposited data

How the results depend on the processing

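The difference in the share of granule-like neurons was -0.850 points without sevoflurane replicate 2, and leaving out 1 library gave -0.850 to 24.1 points. The thinned FKBP5 share difference turned to 0.554 points without control replicate 1 and 1.75 points without sevoflurane replicate 3, within a range of -2.85 to 1.75 points over libraries left out. The FKBP5 log2 fold change in 6 libraries turned to 0.13 and 0.17 without those libraries (range -0.36 to 0.17), and that in 5 libraries to -0.021 without control replicate 2 (range -0.021 to 0.45). In 6 libraries the count of 0 genes became 70 with DESeq2, 13 without sevoflurane replicate 3 and 74 with both LAMA3 and TRHR detected, and was 0 in every other alternative run. In 5 libraries the count of 13 became 183 with no filter on low counts, 79 with a marker sum of at least 20 and 1 with at least 10, 24 without cells marked by scrublet, 124 after thinning, 536 with DESeq2 and 74 with both LAMA3 and TRHR detected. Leaving out 1 more library gave 1 to 120 genes, the fewest without control replicate 1 or 2 and the most without sevoflurane replicate 1. The causes were not tested. With the replicate number as a block the counts were 0 in 6 libraries and 8 in 5 libraries, and 0 for the difference of responses. Deviations of same-numbered libraries correlated at -0.124, -0.262 and -0.368. They were taken from the mean of each group, which ties them to each other. They therefore cannot show whether same-numbered libraries share more than a number. The other 85 values of main comparisons under alternatives kept their direction and side of the threshold. Sevoflurane replicate 3 had 243 cells, which limits what low genes show there.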
